A study of Mus musculus with 9 samples.

Results

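The tumour suppressor p53 activates, besides genes of cell cycle arrest and cell death, a set of genes that damp growth, shift metabolism and supply or repair DNA. Among them, 10 were followed here across the newborn lenses of 3 mouse lines: the sestrins *Sesn1* and *Sesn2*, the mTORC1 inhibitors *Ddit4* and *Ddit4l*, the glycolytic regulator *Tigar*, the ribonucleotide reductase subunit *Rrm2b*, the repair genes *Polk* and *Xpc*, the stress cytokine *Gdf15* and the polo-like kinase *Plk2*. They were taken by symbol, and all 10 were found among the 47729 genes of the files. *Ddit4l* was chosen by its rise in *Le-Cre* lenses, and the *FVB/N* pools are the reference of that rise, so its values are given as a description without a test in every comparison, and the other 9 were listed as known p53 targets.

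Sestrins restrain the growth kinase complex mTORC1 through the GATOR proteins and AMPK, while the products of *Ddit4* and *Ddit4l* restrain it through the TSC complex. TIGAR lowers fructose-2,6-bisphosphate and lets glucose enter the pentose phosphate pathway, and RRM2B supplies deoxynucleotides outside S phase. Many of these genes also answer to other signals, such as hypoxia and glucocorticoids for *Ddit4*, the integrated stress response for *Sesn2* and *Gdf15*, and growth factors for *Plk2*.

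The lenses came from wild type *FVB/N* mice and from mice hemizygous for the *P0-3.9GFPCre* or the *Le-Cre* transgene on the same *FVB/N* background, all collected at P0, the day of birth. Both transgenes express CRE recombinase and GFP under fragments of the *Pax6* P0 promoter, which is active in the lens and other surface ectoderm of the eye and in the pancreas, and no floxed allele was part of the design. Each line had 3 pools of whole lenses, with 6 lenses from 3 mice in each pool, so epithelium and fiber cells were measured together. In such tissue, a smaller number of cells of a type and less RNA per cell cannot be told apart.

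Total expected counts, which are the authors' RSEM estimates of reads per gene, ranged from 20670968 to 28098059 per pool. Crystallin genes held 39.1% to 43.0% of them. Summed markers of retina reached at most 10.7 CPM in a pool, those of macrophages 4.85 CPM and those of cornea 0.409 CPM, with *Krt12* and *Krt14* at 0 in all 9 pools. Blood markers ranged from 41.7 to 120.0 CPM and overlapped between all lines. Endothelial markers (57.6 to 106.0 CPM) and pigment cell markers (24.4 to 47.5 CPM) overlapped as well. The 7 mesenchymal markers, mostly *Pdgfra*, summed to 163.0 to 185.0 CPM in *FVB/N*, 129.0 to 155.0 CPM in *P0-3.9GFPCre* and 127.0 to 138.0 CPM in *Le-Cre*. *Pdgfra* alone had 157 to 177 CPM in *FVB/N*, 123 to 150 CPM in *P0-3.9GFPCre* and 123 to 134 CPM in *Le-Cre*. None of the other mesenchymal markers exceeded 4.4 CPM in a pool. The 4 Y-linked genes followed summed to 126.0 to 194.0 CPM in *FVB/N*, 1.66 to 135.0 CPM in *P0-3.9GFPCre* and 0.633 to 71.9 CPM in *Le-Cre*. The part of these differences in the results was not tested, except that the Y-linked share was entered as a covariate in an alternative fit. Every *FVB/N* pool had a higher Y-linked sum than every *Le-Cre* pool, so that fit cannot fully tell the Y-linked share and the line apart. Here CPM is the expected count scaled for library size after TMM normalization, and TPM is the authors' length-scaled level.

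RefSeq promoter sequences on GRCm38.p6 were matched for 8 of the 10 genes, in 11 windows of 250 bases before a start site, and none was matched for *Rrm2b* or *Xpc*. Of these windows, 4 are shown. They belong to *Ddit4l*, to *Sesn2* and *Gdf15*, which had the lowest unadjusted p of the genes tested, and to *Sesn1*, the abundant sestrin of the group. Capitals mark a p53 half-site, matched here as the consensus decamer on both strands.
*Ddit4l* (chr3:137623422-137623671, plus strand): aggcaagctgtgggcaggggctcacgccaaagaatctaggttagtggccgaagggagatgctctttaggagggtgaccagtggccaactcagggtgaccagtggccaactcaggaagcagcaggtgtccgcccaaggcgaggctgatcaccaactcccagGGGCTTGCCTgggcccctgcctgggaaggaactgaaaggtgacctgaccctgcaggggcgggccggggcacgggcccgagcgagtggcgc
*Sesn2* (chr4:132510457-132510706, minus strand): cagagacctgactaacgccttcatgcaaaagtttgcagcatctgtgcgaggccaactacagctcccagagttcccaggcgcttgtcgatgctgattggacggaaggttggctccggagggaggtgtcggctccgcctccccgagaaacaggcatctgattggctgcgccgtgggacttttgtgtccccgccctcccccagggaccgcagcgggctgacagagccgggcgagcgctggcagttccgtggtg
*Gdf15* (chr8:70632457-70632706, minus strand): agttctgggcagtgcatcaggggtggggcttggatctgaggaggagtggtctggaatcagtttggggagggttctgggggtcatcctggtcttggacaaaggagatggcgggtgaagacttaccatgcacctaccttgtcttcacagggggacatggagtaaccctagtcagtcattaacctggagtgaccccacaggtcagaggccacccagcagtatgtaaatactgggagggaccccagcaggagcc
*Sesn1* (chr10:41887189-41887438, plus strand): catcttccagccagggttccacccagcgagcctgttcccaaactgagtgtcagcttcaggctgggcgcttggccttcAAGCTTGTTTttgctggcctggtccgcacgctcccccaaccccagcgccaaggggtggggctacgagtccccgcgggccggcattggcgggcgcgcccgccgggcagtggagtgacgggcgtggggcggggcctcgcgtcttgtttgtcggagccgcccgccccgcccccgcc
A half-site stood at base -90 from this start of *Ddit4l* and at base -173 from this start of *Sesn1*, and another at base -231 from a start of *Polk*. These starts lie inside the bounds of their genes given below. The other windows of *Sesn1* and *Polk* held no half-site. Over all 32851 promoter windows of that length, 7.13% held a half-site. A full p53 site, made of a pair of half-sites with at most 13 bases between them, was in none of the 11 windows and in 0.0639% of all windows. The *Sesn2* and *Gdf15* windows shown held no match of any motif searched. The core hypoxia motif ACGTG was in the windows of *Ddit4* (base -187), *Plk2* (base -208) and an inner start of *Gdf15*, against 16.6% of all windows. The TGATGNAA motif of the integrated stress response was in none of the 11, against 3.45% of all windows. A match describes these letters only, and sites outside these windows were not searched.

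In *FVB/N* lenses the 10 genes spanned a wide range of TPM. *Sesn1* was the most abundant at 47.1 ± 2.2 TPM (SD, n = 3 pools), above 94.5% of the 24525 genes detected. *Ddit4* followed at 22.3 ± 4.62 TPM. Both stood clear of the rest, with every pool of the higher gene above every pool of the next. *Rrm2b* (4.33 ± 0.496 TPM) and *Xpc* (4.27 ± 0.363 TPM) overlapped each other. *Tigar* (3.06 ± 0.303 TPM) and *Sesn2* (3.0 ± 0.482 TPM) formed the next overlapping pair, followed by *Polk* (1.61 ± 0.217 TPM) and *Plk2* (1.44 ± 0.535 TPM). *Gdf15* at 0.377 ± 0.165 TPM and *Ddit4l* at 0.203 ± 0.208 TPM were lowest and also overlapped, above 40.1% and 32.7% of detected genes. In *Le-Cre* lenses *Sesn1* and *Ddit4* led as well and *Sesn2* came next after these at 4.31 ± 0.363 TPM, where it overlapped *Rrm2b*. *Ddit4l* there came ninth at 1.6 ± 0.717 TPM, above *Gdf15* at 1.06 ± 0.39 TPM, with overlapping pools and with its place owed to the values by which it was chosen.

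**Figure D1:**
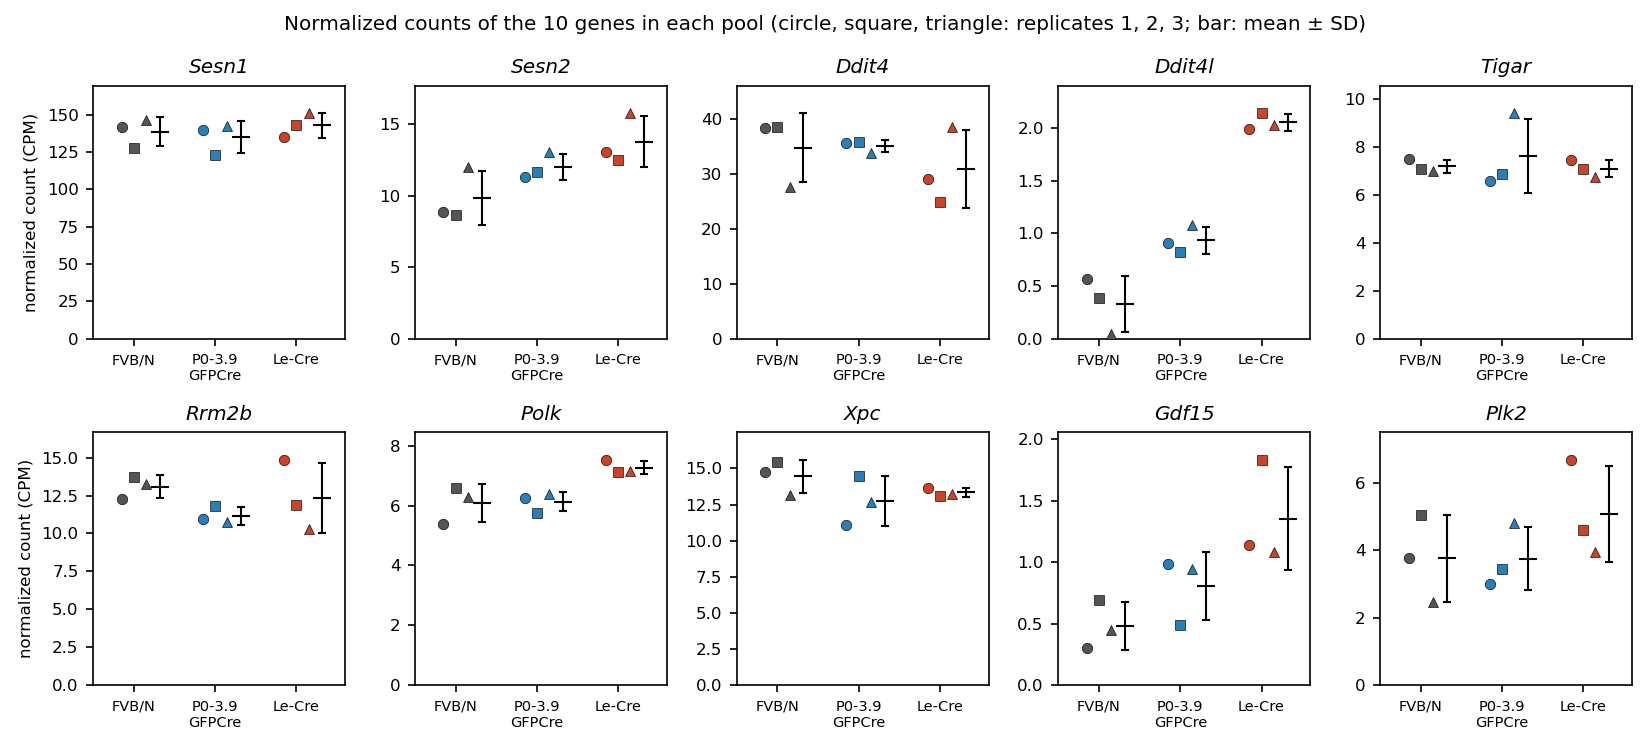
Normalized counts (CPM, linear axes from 0) of the 10 genes in the 3 pools of each line, with the mean and SD of the line beside the points. *Gdf15*, *Sesn2* and *Polk* have every *Le-Cre* pool above every *FVB/N* pool, as do 6.46% of all tested genes. *Ddit4l* has so too, but was chosen by its rise in *Le-Cre*, and the other 6 genes overlap between these lines.

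Of the 9 genes other than *Ddit4l*, 0 passed the cutoff (a change of 1.5-fold or more and an adjusted p no higher than 0.05) in *Le-Cre* lenses relative to *FVB/N*, where 0.0643% of the 15557 tested genes were called in either direction. At an unadjusted p of 0.05 or less, 2 of the 9 were higher (*Sesn2* and *Gdf15*) and 0 were lower, against 3.6% and 4.35% of all tested genes. In CPM the *Le-Cre* pools all exceeded the *FVB/N* pools for 3 of the 9 (*Sesn2*, *Gdf15* and *Polk*) and all fell short of them for 0, against 6.46% and 7.03% of all genes. The median log2 fold change of the 9 was 0.04, with 5 higher and 4 lower, and that of all tested genes was -0.004. Adjusted p-values of the 9 ranged from 0.386 to 0.989 by the quasi-likelihood test of edgeR after Benjamini-Hochberg adjustment. For 6 of the 9 (*Sesn1*, *Ddit4*, *Tigar*, *Rrm2b*, *Polk* and *Xpc*) the whole 95% interval lay within 1.5-fold in either direction.

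In *P0-3.9GFPCre* lenses relative to *FVB/N*, 0 of the same 9 genes passed the cutoff, as did 0% of all tested genes. At an unadjusted p of 0.05 or less, 0 of the 9 were higher and 0 were lower, against 3.41% higher and 3.41% lower among all genes. In CPM the *P0-3.9GFPCre* pools lay wholly above the *FVB/N* pools for 0 of the 9 and wholly below for 1, *Rrm2b*, where the shares of all genes were 6.02% and 5.94%. The median log2 fold change of the 9 was 0.01, with 5 higher and 4 lower, and adjusted p-values ranged from 0.763 to 0.999 by edgeR's test. This comparison and the preceding one share the *FVB/N* pools.

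Between the transgenic lines, 0 of the 9 genes other than *Ddit4l* passed the cutoff, again as 0% of all genes did. At an unadjusted p of 0.05 or less there were 0 in either direction, against 3.63% of all genes higher and 4.25% lower in *Le-Cre*. In CPM the *Le-Cre* pools were wholly above the *P0-3.9GFPCre* pools for *Polk* and *Gdf15* and wholly below for none of the 9, against 6.74% and 7.37% of all genes. The median log2 fold change of the 9 was 0.15, with 7 higher and 2 lower, and adjusted p-values ranged from 0.674 to 0.929 by edgeR's test.

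**Figure D2:**
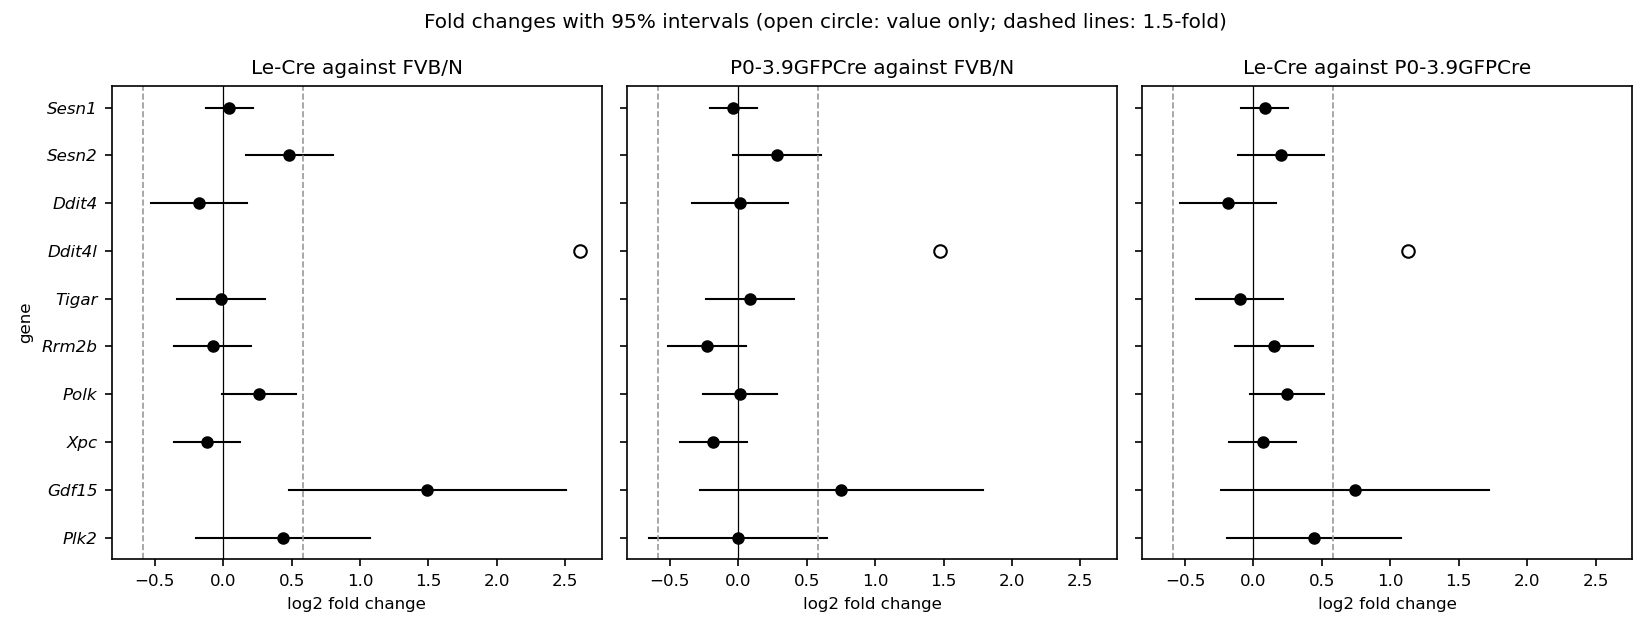
Log2 fold changes of the 10 genes in the 3 comparisons, as filled points with 95% intervals from edgeR's fit, where dashed lines mark 1.5-fold. *Sesn2* and *Gdf15* have intervals above 0 in *Le-Cre* against *FVB/N*, while open circles show *Ddit4l*, chosen by its rise in *Le-Cre*, as a value without a test.

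Among the inhibitors of mTORC1, the sestrins *Sesn1* and *Sesn2* differed in level and in pattern. *Sesn1* (chromosome 10, 41809935 to 41908424 of GRCm38) had 142, 128 and 146 CPM in *FVB/N*, 140, 123 and 142 CPM in *P0-3.9GFPCre*, and 135, 143 and 151 CPM in *Le-Cre*. The lines overlapped fully. Its log2 fold change in *Le-Cre* relative to *FVB/N* was 0.04 with a 95% interval from -0.13 to 0.21, and in *P0-3.9GFPCre* it was -0.04 (-0.21 to 0.13). Its paralog *Sesn3* was about as abundant, at 45.1 ± 3.83 TPM in *FVB/N*, 43.2 ± 2.38 TPM in *P0-3.9GFPCre* and 46.2 ± 3.08 TPM in *Le-Cre*. In CPM it had 308 to 333 in *FVB/N*, 292.8 to 293.6 in *P0-3.9GFPCre* and 325 to 337 in *Le-Cre*. On that scale the *P0-3.9GFPCre* pools were below all others.

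*Sesn2*, the stress-inducible sestrin (chromosome 4, 132492032 to 132510501), had 8.89, 8.65 and 12.04 CPM in *FVB/N*, 11.3, 11.6 and 13.1 CPM in *P0-3.9GFPCre*, and 13.1, 12.5 and 15.8 CPM in *Le-Cre*. In CPM the 3 *Le-Cre* pools were above all *FVB/N* pools, but *FVB/N* replicate 3 came close to the lowest of them. The *P0-3.9GFPCre* pools overlapped both lines on that scale. In TPM the *P0-3.9GFPCre* pools (3.69 to 4.12) were also all above *FVB/N* (2.71 to 3.56) and overlapped *Le-Cre* (4.07 to 4.73). The log2 fold change in *Le-Cre* relative to *FVB/N* was 0.48 (standard error 0.14, interval 0.17 to 0.80), for an unadjusted p of 0.00643 and, after adjustment, 0.386 in edgeR's test. Once the Y-linked share entered the fit it was 0.29 (adjusted p = 0.954, edgeR). In *P0-3.9GFPCre* relative to *FVB/N* it was 0.28 (interval -0.04 to 0.60, adjusted p = 0.763, edgeR).

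Of the 20 genes that act with sestrins in mTORC1 signalling, such as those of the GATOR and TSC complexes, all were tested and 0 were called in any comparison. At an unadjusted p of 0.05 or less, 0 of the 20 moved in *Le-Cre* relative to *FVB/N*, where their median log2 fold change was -0.01. Over all tested genes, 3.6% were higher and 4.35% lower at that level. The lowest p there belonged to *Nprl2*, a GATOR1 subunit, with a log2 fold change of -0.22 (adjusted p = 0.685, edgeR). In *P0-3.9GFPCre* relative to *FVB/N*, 0 were higher and 2 lower at that level, against 3.41% of all tested genes each way. Between the transgenic lines, 2 were higher and 2 lower in *Le-Cre*, against 3.63% and 4.25%. *Sesn3* was among the higher, with a log2 fold change of 0.17 (adjusted p = 0.463, edgeR).

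*Ddit4l* (chromosome 3, 137621612 to 137628333), the paralog of *Ddit4*, rested on few reads. Expected counts were 15, 9 and 1 in the *FVB/N* pools, 22, 17 and 24 in the *P0-3.9GFPCre* pools, and 56, 55 and 45 in the *Le-Cre* pools. In CPM the *FVB/N* pools had 0.567, 0.387 and 0.0409, the *P0-3.9GFPCre* pools 0.905, 0.824 and 1.08, and the *Le-Cre* pools 1.99, 2.15 and 2.04. The lines did not overlap, with *P0-3.9GFPCre* between *FVB/N* and *Le-Cre*, and the *Le-Cre* pools, by which the gene was chosen, were the closest together. Across the 9 pools *Ddit4l* spanned 52.5-fold, the widest range of the 10 genes, ahead of *Gdf15* at 6.06-fold and *Plk2* at 2.72-fold. The lower end of that span is the single read of *FVB/N* replicate 3. In *P0-3.9GFPCre* the log2 difference from these same *FVB/N* pools was 1.47. It was 0.96 without *FVB/N* replicate 3 and 2.12 without *FVB/N* replicate 1. No test is given for it, because the low *FVB/N* pools took part in the choice of the gene.

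The TPM of *Ddit4l* showed a different spread, because RSEM divides by an effective length averaged over isoforms. The files list 3 isoforms, which in GENCODE M21 are 2722, 446 and 241 bases long, and the effective length ranged from 932 to 2672 bases between pools. The *Le-Cre* pools had 2.28, 1.66 and 0.85 TPM at effective lengths of 932, 1466 and 2456 bases, although their counts were nearly equal. The *FVB/N* pools had 0.43, 0.16 and 0.02 TPM and the *P0-3.9GFPCre* pools 0.59, 0.43 and 0.8 TPM. On this scale the highest *FVB/N* pool and the lowest *P0-3.9GFPCre* pool were equal, and the *Le-Cre* pools stayed above all others.

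**Figure D3:**
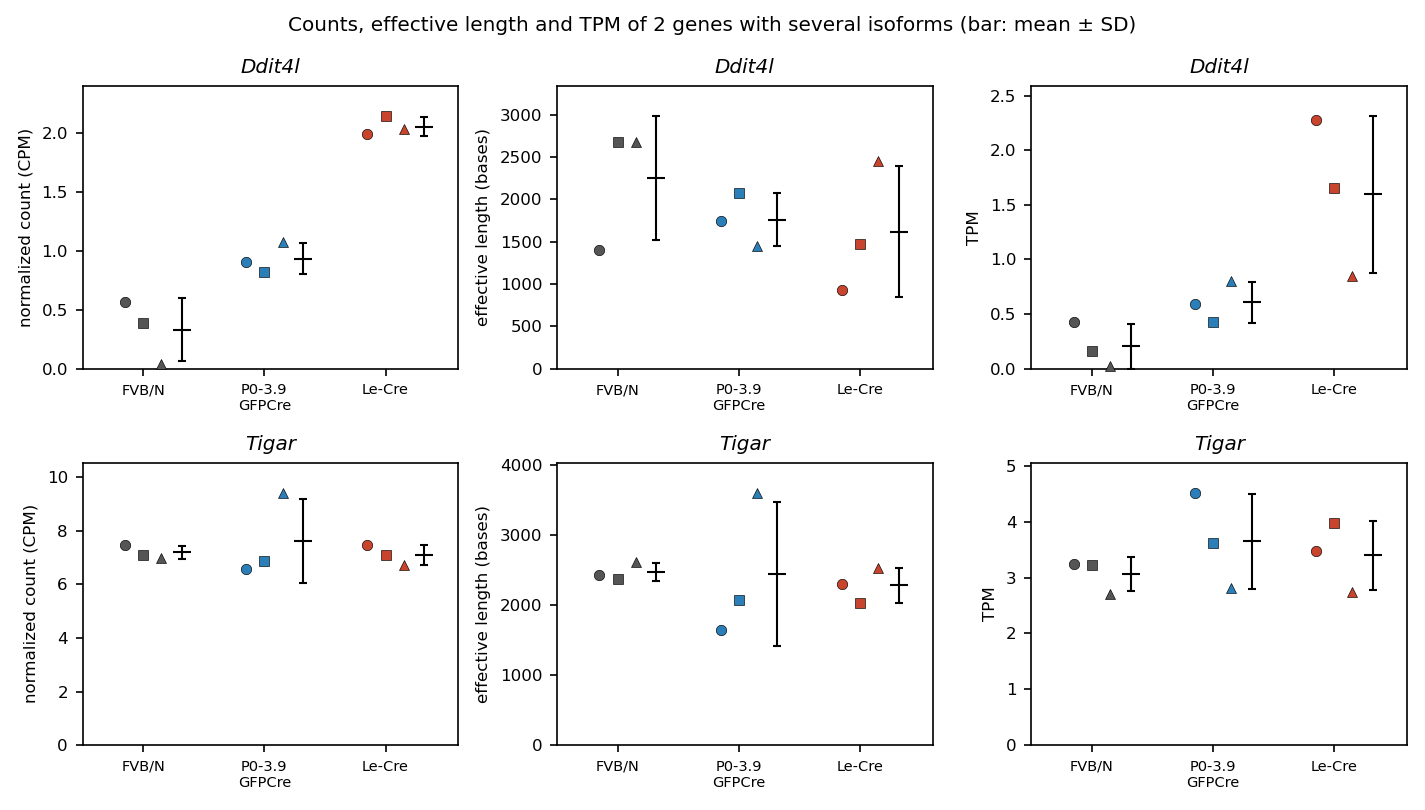
Normalized count (CPM), effective length (bases) and TPM of *Ddit4l* and *Tigar* in the 3 pools of each line, on linear axes from 0, with the mean and SD of the line. The *Le-Cre* pools of *Ddit4l* lie between 1.99 and 2.15 CPM but between 0.85 and 2.28 TPM, and the *P0-3.9GFPCre* pool of *Tigar* with the highest count has the lowest TPM of its line.

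The 5 genes whose profile over the 9 pools was most like that of *Ddit4l*, by the mean absolute difference of log2 CPM centred per gene, were *Gm19620* (0.33), *Ppargc1a* (0.45), *Prnd* (0.46), *Gm13610* (0.47) and *Ces2c* (0.49). *Ppargc1a*, a coactivator of mitochondrial genes, had 0.123 to 1.68 CPM in *FVB/N*, 1.36 to 1.73 CPM in *P0-3.9GFPCre* and 1.49 to 2.49 CPM in *Le-Cre*. All 5 were lowest in *FVB/N* replicate 3, as was *Ddit4l*. Of the other genes in the group, *Gdf15* ranked at place 106 and *Sesn2* at place 324 among the 15557 tested genes. The rest ranked from place 806 (*Plk2*) to place 11922 (*Xpc*). Since *Ddit4l* was chosen by its rise in these same pools, the ranks are a description only.

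*Ddit4* (chromosome 10, 59949669 to 59951834), which encodes REDD1, was abundant and variable. It had 38.4, 38.4 and 27.5 CPM in *FVB/N*, 35.7, 35.8 and 33.7 CPM in *P0-3.9GFPCre*, and 29.1, 24.8 and 38.6 CPM in *Le-Cre*. The low *FVB/N* pool and the high *Le-Cre* pool crossed over the other line, so the lines overlapped. The log2 fold change in *Le-Cre* relative to *FVB/N* was -0.17 (interval -0.52 to 0.17, adjusted p = 0.843, edgeR).

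Genes that share regulators with *Ddit4* were read beside it. Of 14 tested hypoxia-responsive genes, 0 were called in *Le-Cre* relative to *FVB/N*, but 13 were lower, 6 of them at an unadjusted p of 0.05 or less, and their median log2 fold change was -0.24. Over all tested genes, 4.35% were lower at that level, 49% had a higher value in *Le-Cre*, and the median was -0.004. The mitophagy receptor *Bnip3* averaged 158.6 CPM in *FVB/N* lenses against 106.4 CPM in *Le-Cre* (log2 fold change -0.58, adjusted p = 0.0592, edgeR), and *Pdk1*, which limits pyruvate entry into mitochondria, had a log2 fold change of -0.46 (adjusted p = 0.198, edgeR). In *P0-3.9GFPCre* against the same *FVB/N* pools, 5 of the 14 were lower at that unadjusted level, against 3.41% of all tested genes, and the median was -0.15. The Y-linked sums differed between *FVB/N* and *Le-Cre*, as given above, and their part in these genes was not tested. Of the 7 glucocorticoid-responsive genes, 0 reached an unadjusted p of 0.05 in any comparison.

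*Tigar* (chromosome 6, 127085116 to 127109557) had 7.49, 7.10 and 7.002 CPM in *FVB/N*, 6.58, 6.88 and 9.43 CPM in *P0-3.9GFPCre*, and 7.47, 7.10 and 6.74 CPM in *Le-Cre*. The *FVB/N* and *Le-Cre* pools were nearly the same, with a log2 fold change of -0.02 (interval -0.34 to 0.30), and *P0-3.9GFPCre* replicate 3 stood above all other pools. That pool had 2.82 TPM, the lowest of its line, since its effective length was 3601 bases against 1645 and 2067 bases in the other *P0-3.9GFPCre* pools. The files list a 3651-base coding isoform and an 855-base isoform annotated for nonsense-mediated decay. An exon of *Tigar* overlaps the antisense gene *Platr31*, and the sources used here do not state that counting used strand.

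Of 14 tested genes of fructose bisphosphate metabolism and the pentose phosphate pathway, 0 were called in any comparison. In *Le-Cre* relative to *FVB/N*, 2 were lower at an unadjusted p of 0.05 or less, against 4.35% of all tested genes. These were *Pfkl*, a phosphofructokinase (log2 fold change -0.38, adjusted p = 0.186, edgeR), and *Pgd*, a pentose phosphate dehydrogenase (-0.23, adjusted p = 0.544, edgeR).

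The genes of DNA precursor supply and repair showed no called difference. *Rrm2b* (chromosome 15, 37923952 to 37961318) had 12.3, 13.7 and 13.3 CPM in *FVB/N*, 10.9, 11.8 and 10.7 CPM in *P0-3.9GFPCre*, and 14.9, 11.9 and 10.3 CPM in *Le-Cre*. In CPM the *P0-3.9GFPCre* pools were all below the *FVB/N* pools, by a log2 fold change of -0.23 (interval -0.51 to 0.06, adjusted p = 0.791, edgeR), and the *Le-Cre* pools spread across both. In TPM the *P0-3.9GFPCre* pools (3.81 to 4.18) overlapped *FVB/N* (4.0 to 4.9). At the read length, 10.6% of the sequence windows of *Rrm2b* are shared with other genes and an exon overlaps *Gm49085*. The effect of this on its counts was not tested. RSEM's posterior standard deviation of its count was 1.13 to 4.49 per pool, at counts from 228 to 418.

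The S phase subunit *Rrm2* averaged 14.91 CPM in *FVB/N* lenses against 19.98 CPM in *Le-Cre* (log2 fold change 0.42, unadjusted p = 0.00741, adjusted p = 0.421, edgeR). It was one of 2 of the 10 nucleotide supply genes higher at that unadjusted level, and the other, the thymidine kinase *Tk1*, had a log2 fold change of 0.43 (adjusted p = 0.479, edgeR). Of the 10, 0 were called in any comparison.

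*Polk* (chromosome 13, 96480690 to 96542579), a translesion polymerase, had 5.37, 6.58 and 6.31 CPM in *FVB/N*, 6.25, 5.76 and 6.37 CPM in *P0-3.9GFPCre*, and 7.54, 7.14 and 7.15 CPM in *Le-Cre*. In CPM the *Le-Cre* pools were above all 6 others, by a small margin. In TPM the lowest *Le-Cre* pool and the highest *P0-3.9GFPCre* pool were equal at 1.94, and *FVB/N* had 1.36 to 1.77. The log2 fold change was 0.26 relative to *FVB/N* (interval -0.01 to 0.53, unadjusted p = 0.0585, adjusted p = 0.656, edgeR) and 0.25 relative to *P0-3.9GFPCre* (interval -0.02 to 0.52, adjusted p = 0.674, edgeR). Of 10 translesion synthesis genes, 0 reached an unadjusted p of 0.05 in any comparison. The lowest p was that of the ubiquitin ligase *Rad18*, with a log2 fold change of 0.54 in *Le-Cre* relative to *FVB/N* (adjusted p = 0.644, edgeR).

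*Xpc* (chromosome 6, 91489305 to 91515888), the damage sensor of nucleotide excision repair, had 14.8, 15.4 and 13.2 CPM in *FVB/N*, 11.1, 14.5 and 12.7 CPM in *P0-3.9GFPCre*, and 13.7, 13.1 and 13.3 CPM in *Le-Cre*. All lines overlapped. Its log2 fold change was -0.12 in *Le-Cre* (interval -0.36 to 0.13) and -0.18 in *P0-3.9GFPCre* (interval -0.43 to 0.06) relative to *FVB/N*. Of 14 nucleotide excision repair genes, 0 were called in any comparison, and *Ercc5*, the endonuclease XPG, was the 1 gene at an unadjusted p of 0.05 or less, in *P0-3.9GFPCre* relative to *FVB/N* (log2 fold change 0.24, adjusted p = 0.693, edgeR). Over all tested genes, 3.41% were higher at that level there.

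*Gdf15* (chromosome 8, 70629393 to 70632456), a secreted cytokine of the TGF-beta family, was the other low gene. Its expected counts were 8, 16 and 11 in *FVB/N*, 24, 10 and 21 in *P0-3.9GFPCre*, and 32, 47 and 24 in *Le-Cre*, which gave 0.303, 0.688 and 0.450 CPM, 0.987, 0.484 and 0.943 CPM, and 1.14, 1.83 and 1.09 CPM. In CPM every *Le-Cre* pool was above all 6 others, and the *P0-3.9GFPCre* pools overlapped *FVB/N*. In TPM the *Le-Cre* pools (0.83 to 1.51) overlapped *P0-3.9GFPCre* (0.4 to 0.84) and stayed above *FVB/N* (0.24 to 0.56). The log2 fold change in *Le-Cre* relative to *FVB/N* was 1.49 (standard error 0.46, interval 0.48 to 2.51), for an unadjusted p of 0.00787 and, after adjustment, 0.431 in edgeR's test. It was 0.75 in *P0-3.9GFPCre* (interval -0.28 to 1.79, adjusted p = 0.81, edgeR). Over the alternatives, which include the Y-linked covariate, the adjusted p of *Gdf15* in *Le-Cre* relative to *FVB/N* ranged from 0.3 to 0.95 (edgeR and DESeq2). Of the 3 genes of its receptor and processing, 2 were tested, and neither the co-receptor *Ret* (-0.27) nor the protease *Furin* (-0.04) reached an unadjusted p of 0.05 in *Le-Cre*.

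Both *Gdf15* and *Sesn2* are also known to be induced through ATF4. Of 13 tested genes of the integrated stress response, 0 were called in any comparison. The 1 gene higher at an unadjusted p of 0.05 or less in *Le-Cre* relative to *FVB/N* was *Mthfd2*, a mitochondrial folate enzyme (log2 fold change 0.47, adjusted p = 0.513, edgeR), and the median of the 13 was 0.07. Over all tested genes, 3.6% were higher at that level. In *P0-3.9GFPCre* relative to *FVB/N*, 2 were higher at that level, against 3.41% of all tested genes. They were *Atf4* itself (0.18, adjusted p = 0.687, edgeR) and *Phgdh*, an enzyme of serine synthesis (0.18, adjusted p = 0.67, edgeR).

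*Plk2* (chromosome 13, 110395046 to 110400844) had 3.78, 5.03 and 2.46 CPM in *FVB/N*, 3.00, 3.44 and 4.80 CPM in *P0-3.9GFPCre*, and 6.69, 4.60 and 3.93 CPM in *Le-Cre*. The lines overlapped, and the highest pool was *Le-Cre* replicate 1. The log2 fold change in *Le-Cre* relative to *FVB/N* was 0.44 (interval -0.20 to 1.08, adjusted p = 0.773, edgeR), 0.19 without *Le-Cre* replicate 1 (adjusted p = 0.935, edgeR) and 0.22 with the Y-linked covariate (adjusted p = 0.99, edgeR). Of the 4 other polo-like kinases, 0 were called in any comparison, and *Plk4*, the centriole duplication kinase, had log2 fold changes of 0.27 in *Le-Cre* (adjusted p = 0.625, edgeR) and 0.39 in *P0-3.9GFPCre* (adjusted p = 0.632, edgeR).

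*Plk2* is also an early growth factor response gene. Of 10 tested immediate-early genes, 0 were called in any comparison, and 2 were higher at an unadjusted p of 0.05 or less in *Le-Cre* relative to *FVB/N*, against 3.6% of all tested genes. They were *Egr1* (log2 fold change 0.92, adjusted p = 0.544, edgeR) and *Junb* (0.62, adjusted p = 0.607, edgeR). In *P0-3.9GFPCre* relative to the same *FVB/N* pools, *Junb* was also higher at that level (0.62, adjusted p = 0.705, edgeR), against 3.41% of all tested genes.

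Other p53 targets were measured with a list of 39, of which 35 were tested. The list was drawn up with earlier results of these lenses known, so its count is not independent evidence. In *Le-Cre* relative to *FVB/N*, 2 were called, *Cdkn1a*, the cell cycle inhibitor p21, and *Trp53inp1*, a p53 cofactor. Neither was called with the Y-linked covariate, or when *FVB/N* replicate 2 or any *Le-Cre* pool was left out, since 0 genes passed the cutoff there. The Y-linked share and the line cannot be fully told apart in that covariate fit. At an unadjusted p of 0.05 or less, 11 of the 35 were higher and 0 lower, and the median log2 fold change was 0.20. Over all tested genes, 0.0643% were called, 3.6% were higher at that level and 4.35% lower. The Y-linked and mesenchymal marker sums also differed between these lines, as given above. The mesenchymal difference rests on *Pdgfra* and does not by itself show a difference in mesenchymal cells, and its part was not tested. In *P0-3.9GFPCre*, against the same *FVB/N* pools, 0 were called, 6 were higher and 1 lower at that level, and the median was 0.06. Over all tested genes in that comparison, 0% were called, and 3.41% were higher and 3.41% lower at that level. The summed level of the 39 genes was 806.0 to 865.0 CPM in *FVB/N*, 824.0 to 900.0 CPM in *P0-3.9GFPCre* and 950.0 to 953.0 CPM in *Le-Cre*. The 9 genes described here other than *Ddit4l* thus had a median of 0.04 where the wider list had 0.20, and this difference was not tested. *Trp53* itself had a log2 fold change of 0.26 in *Le-Cre* (unadjusted p = 0.0322, adjusted p = 0.591, edgeR), and of 8 tested regulators including it, 0 were called.

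**Figure D4:**
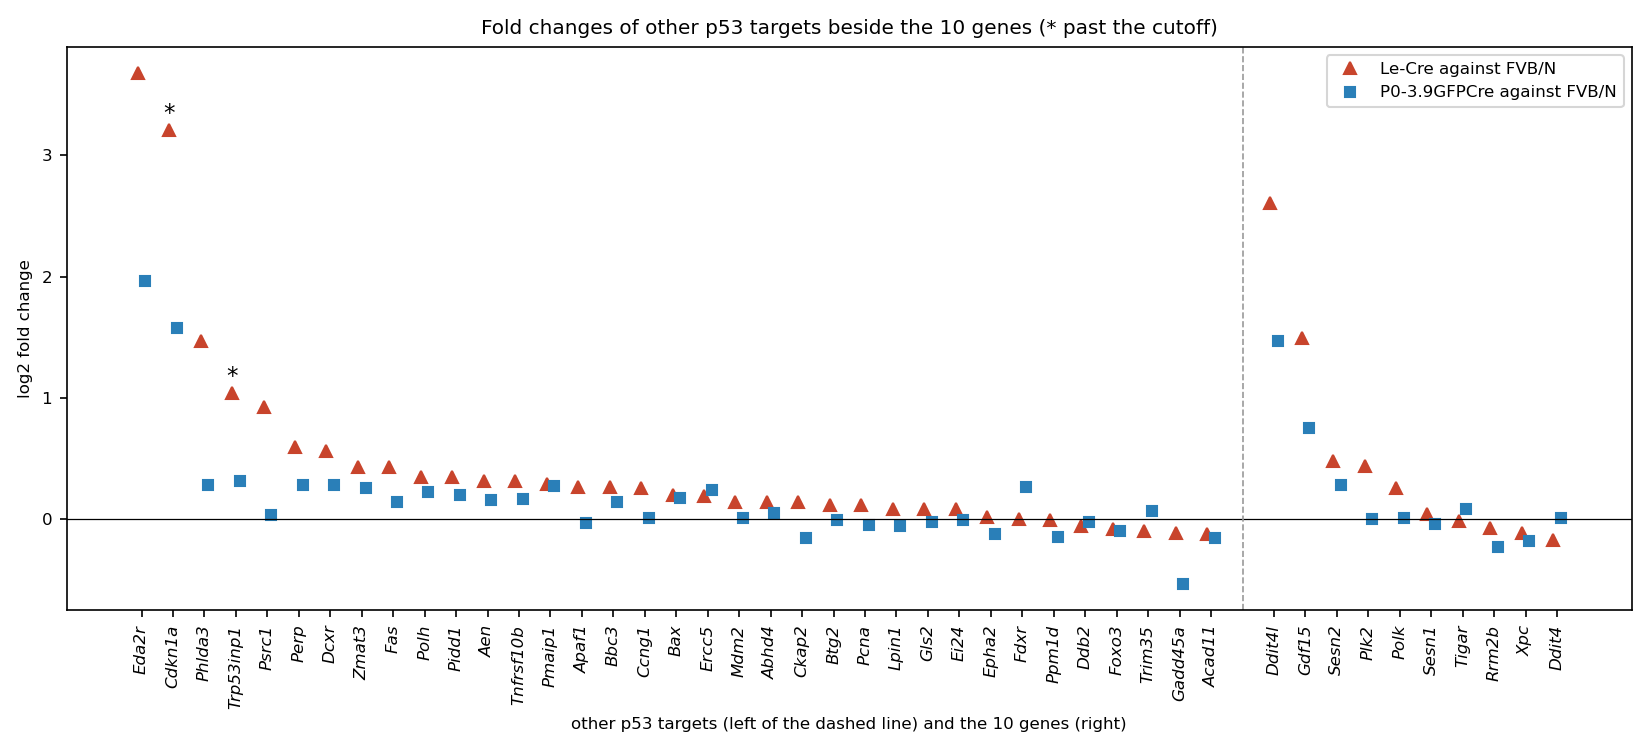
Log2 fold changes relative to *FVB/N* of the 35 tested other p53 targets, left of the dashed line, and of the 10 genes, right of it, for *Le-Cre* (triangles) and *P0-3.9GFPCre* (squares), which share the *FVB/N* pools. Asterisks mark *Cdkn1a* and *Trp53inp1*, the 2 genes past the cutoff in *Le-Cre*, and *Gdf15* and *Sesn2* have the highest *Le-Cre* values among the 10 genes after *Ddit4l*, which was chosen by that value.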

How the data were processed

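Polyadenylated RNA of whole newborn lenses was sequenced by the authors as single-end reads, trimmed with Trimmomatic 0.36, mapped to GRCm38 with GSNAP and quantified with RSEM 1.3.0. The deposited tables give, per gene, the expected count, which is an estimated count that is not normalized, and TPM, scaled by RSEM for effective length and library size. The deposited signal columns used here are RSEM's effective length, the posterior standard deviation of the count and the bounds of its TPM interval. The gene annotation is not given in the sources used here, and coordinates are from GENCODE M21.

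Expected counts were rounded and fitted in R 4.3.3 with edgeR 4.0.16 (TMM, filterByExpr, all 9 pools, a coefficient for each line, glmQLFit and glmQLFTest) with Benjamini-Hochberg adjustment over 15557 genes. Intervals are 95% t intervals on the fit's standard error. Genes were called at 1.5-fold or more and an adjusted p no higher than 0.05. The test was checked on simulated counts. Alternatives used DESeq2 1.42.0, other filters and samples, a Y-linked covariate, the replicate number as a block, and fits without each pool.

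The 10 genes, the gene lists and the rules were chosen with earlier results of these data known. Named are all 10 genes, the called list genes and up to 3 per list of lowest p in *Le-Cre*, close paralogs, and the 5 genes most like *Ddit4l*; *Ercc5* and *Atf4* were also named for their *P0-3.9GFPCre* values and *Krt12* and *Krt14* as markers at 0. Separate cages or litters are not stated, so p-values set a difference between lines against the spread between pools only. That spread was estimated over all 9 pools, with information shared between genes. With 3 pools against 3, an exact permutation test cannot give a two-sided p below 0.1.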

Additional observations from a re-analysis of the deposited data

How the results depend on the processing

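The number of genes other than *Ddit4l* past the cutoff was 0 in every comparison and every alternative run. Across all genes, the count in *Le-Cre* relative to *FVB/N* was 10, and 49 with DESeq2 without a prior, 131 without a filter on low counts, 5 with a mean of at least 10 counts, 2 with the replicate block, 0 with the Y-linked covariate, and 0 to 10 when a pool was left out. In *P0-3.9GFPCre* relative to *FVB/N* it was 0, and 11 with DESeq2 without a prior, 1 with it, 93 without the filter and 0 to 14 when a pool was left out. Between the transgenic lines it was 0, and 32, 4 and 123 in the same order, 31 when only the compared pools were fitted, and 0 to 18 when a pool was left out. The cause was not tested.

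Some log2 fold changes near 0 changed sign. With the replicate block, *Plk2* in *P0-3.9GFPCre* relative to *FVB/N* was 0.035. With the Y-linked covariate, *Sesn1* in *Le-Cre* relative to *FVB/N* was -0.032, and *Ddit4* (-0.074), *Tigar* (-0.02) and *Polk* (-0.012) in *P0-3.9GFPCre* relative to *FVB/N* were lower. When a pool was left out, values in *P0-3.9GFPCre* relative to *FVB/N* ranged from -0.131 to 0.089 for *Ddit4*, -0.232 to 0.26 for *Plk2*, -0.071 to 0.071 for *Polk*, -0.094 to 0.029 for *Sesn1* and -0.097 to 0.183 for *Tigar*. In *Le-Cre* relative to *FVB/N* they ranged from -0.234 to 0.033 for *Rrm2b*, -0.011 to 0.086 for *Sesn1* and -0.056 to 0.017 for *Tigar*. Between the transgenic lines they ranged from -0.005 to 0.262 for *Rrm2b*, -0.198 to 0.082 for *Tigar* and -0.025 to 0.167 for *Xpc*. With a prior on the fold changes, DESeq2 gave 0.251 for *Gdf15* and 0.323 for *Sesn2* in *Le-Cre* relative to *FVB/N*. Over the alternatives, adjusted p-values of *Sesn2* in that comparison ranged from 0.0997 to 0.954 and those of *Gdf15* from 0.3 to 0.95, by edgeR and DESeq2.

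The mean correlation of residuals across genes between like-numbered pools was 0.03 (-0.104 to 0.12, 9 pairs), against -0.015 (-0.171 to 0.116) for other pairs (18 pairs). The ranges overlap, and with so few pairs this check cannot tell whether like-numbered pools were handled together. For 1 *FVB/N* pool the description in the labels does not follow the number in its title, so the numbering behind this check is itself in doubt. The block changed no call among the 9 genes tested. Depth limits *Ddit4l* and *Gdf15* most, with 1 to 56 and 8 to 47 expected counts per pool.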
